A study of Mus musculus with 10 samples.

Results

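Chromatin accessibility was described at 80 genes for the proteins of the cytosolic ribosome, out of 21631 protein-coding mouse genes. The genes were taken by symbol, as Rpl or Rps with a number and an optional letter, or Rplp with a number, and the Rps6k kinases were left out. Peaks of 8 ATAC-seq libraries on chromosomes 1 to 19 and X were merged into 103446 regions wherever they shared 1 bp. Of these, 289 lay inside such a gene by their midpoint or had one as the nearest gene within 100 kb, and they belonged to 68 of the 80 genes. In ATAC-seq a transposase cuts accessible DNA, and a region counted as called in a library if at least 1 of its peaks lay in that region.

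The libraries were made from 100000 lineage-negative bone marrow cells each, from C57BL/6 mice of 4 genotypes with 2 libraries per genotype. Wild-type (WT) mice carried no mutant allele. The Npm1c mice were Npm1flox-cA/+;Mx1-Cre+, the Flt3-ITD mice were Flt3ITD/+, and the double mutant (DM) mice were Npm1flox-cA/+;Flt3ITD/+;Mx1-Cre+. Mx1-Cre, which is driven by an interferon-inducible promoter, was named only for the genotypes with the Npm1c allele, so Cre and that allele cannot be told apart. The ages of the mice are not given in the sources used here.

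Ribosomal proteins assemble with ribosomal RNA into the large subunit (Rpl genes, and the Rplp genes of the stalk) and the small subunit (Rps genes). Their genes are short, are transcribed in nearly all cells, often carry small nucleolar RNA genes in their introns, and give messenger RNAs that start with a C followed by a run of pyrimidines, through which growth signals adjust their translation. Reduced dose of several of them impairs red blood cell production in Diamond-Blackfan anaemia. Nucleophosmin, the product of Npm1, is a nucleolar protein that takes part in ribosome assembly, and its mutant form Npm1c is held in the cytoplasm.

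The genes had a median length of 3169.5 bp, against 17329 bp over all protein-coding genes. Small nucleolar RNA genes lay inside 28 of the 80 (35%), 55 of them in all, against 372 of all 21631 genes (1.72%). Promoter sequences of RefSeq on GRCm38.p6, whose coordinates are those of mm10, were found for 60 of the 80 genes, and covered 250 bases before and 50 bases from the annotated start. The sequences below show 150 of those bases, 130 before the start and 20 from it, read in the direction of the gene, for the 3 genes with the widest and the 3 with the narrowest start peaks among those with a sequence and a start region called in all 8 libraries. Capitals mark a match on either strand to one of 7 short motifs. Found in these stretches were the ETS letters, searched as CCGGAAG, the core of sites bound by ETS factors. The second was the core of the binding site of the zinc finger protein ZBTB33, for which the letters TCGCGAG were searched. The third was the GC box of SP and KLF factors, which was searched by the letters GGGCGG, and the TATA box was searched as its own set of letters, TATAAA. The motifs of YY1, NRF1 and the CCAAT box had no match in them. The widest are Rpl10 (chrX:74270686-74270835, plus strand), Rpl38 (chr11:114668450-114668599, plus strand) and Rpl34 (chr3:130730379-130730528, minus strand).
Rpl10: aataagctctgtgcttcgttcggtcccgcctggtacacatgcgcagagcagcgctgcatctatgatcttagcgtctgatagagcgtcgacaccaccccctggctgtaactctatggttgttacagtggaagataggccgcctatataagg
Rpl38: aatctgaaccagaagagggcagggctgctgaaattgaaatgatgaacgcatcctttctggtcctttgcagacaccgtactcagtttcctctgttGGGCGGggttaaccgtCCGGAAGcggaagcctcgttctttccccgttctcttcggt
Rpl34: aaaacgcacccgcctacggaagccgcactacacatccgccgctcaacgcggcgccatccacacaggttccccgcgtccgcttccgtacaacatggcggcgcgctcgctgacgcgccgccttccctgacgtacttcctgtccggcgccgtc
The narrowest are Rps28 (chr17:33824543-33824692, minus strand), Rps15 (chr10:80292301-80292450, plus strand) and Rps2 (chr17:24719933-24720082, plus strand).
Rps28: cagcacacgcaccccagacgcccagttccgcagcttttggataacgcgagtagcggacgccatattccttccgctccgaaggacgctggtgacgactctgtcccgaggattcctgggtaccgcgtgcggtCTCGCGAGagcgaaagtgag
Rps15: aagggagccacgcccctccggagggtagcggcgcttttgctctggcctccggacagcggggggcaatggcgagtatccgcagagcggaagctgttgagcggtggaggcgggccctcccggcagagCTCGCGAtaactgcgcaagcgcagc
Rps2: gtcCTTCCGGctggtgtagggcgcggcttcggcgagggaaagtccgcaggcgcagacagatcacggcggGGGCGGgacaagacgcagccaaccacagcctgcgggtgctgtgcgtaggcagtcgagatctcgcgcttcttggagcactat

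In Rpl38 the ETS match began 20 bases before the start and the GGGCGG match 36 bases before it. In Rps28 the TCGCGAG letters read on both strands at the start itself, and in Rps15 they began 5 bases before it. The printed stretches of Rpl10 and Rpl34 held none of the letters searched. A match is a description of the letters and not evidence of a bound factor.

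Over the 60 promoter windows of 300 bases, the ETS letters stood in 23 (38.3%), against 12.1% of the 17274 promoters in the table and 19.97% of the 9084 whose gene had a start region called in all 8 libraries. The ZBTB33 letters stood in 12 windows (20%), against 2.78% and 4.54%, among them those of Rps6, Rps19, Rps9, Rpl12 and Rpl7a, which were picked as examples after the matches were seen. The YY1 motif, searched as AAGATGG, stood in 9 windows (15%), against 6.40% of all promoters and 7.42% of those with a start region in all 8 libraries. These 3 motifs were more frequent than in either larger set of promoters, both of which include ribosomal protein genes, and the windows with one can hold another.

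GATA factor sites, searched as AGATAA, stood in 4 windows (6.67%, against 9.99% of all promoters and 5.71% of those with a start region in all 8 libraries). The RUNX letters, for which the search used TGTGGT, stood in 5 windows (8.33%, against 14.8% and 11.7%). The AP-1 site was searched with any base in its centre, as TGANTCA, and stood in 1 window (1.67%, against 7.09% and 4.10%). Of the general promoter elements, the TATA letters stood in 7 windows (11.7%, against 13.4% of all and 6.41% of those with a start region in all 8 libraries), the GC box in 34 (56.7%, against 46.9% of all and 68.3% of those with a start region in all 8 libraries), and the CCAAT box in 18 (30%, against 39.6% and 39.4%). The NRF1 motif, given here by GCATGCG, stood in 4 windows (6.67%, against 4.54% and 7.16%), and the E-box, with CACGTG as its letters, in 5 (8.33%, against 8.01% and 10.9%).

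**Figure D1:**
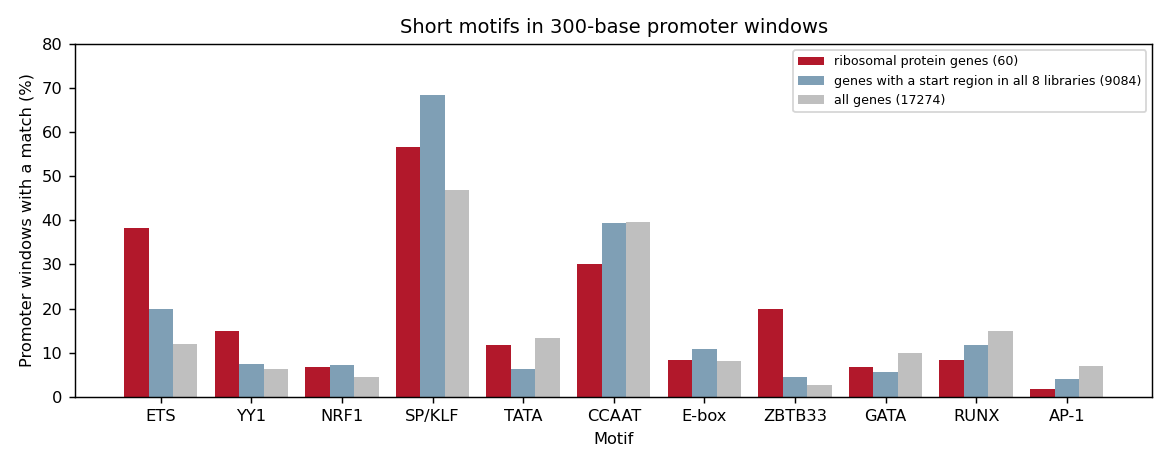
Percent of 300-base promoter windows (y axis) that hold each short motif (x axis) on either strand, for 60 ribosomal protein genes, for genes with a start region called in all 8 libraries and for all genes with a sequence. The ETS bars stand at 38.3%, 19.97% and 12.1%, and the ZBTB33 bars at 20%, 4.54% and 2.78%.

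At the annotated start itself, 20 of the 60 genes (33.3%) had a C, against 13.9% of all promoters. A C followed by 4 pyrimidines stood exactly there in 13 genes (21.7%, against 2.19%) and within 5 bases of it in 28 (46.7%, against 18.97%). Rpl38, shown above, is one of them. Annotated starts are not always the bases at which transcription begins. The windows had a median GC content of 56.8% and a median of 21 CpG dinucleotides, against 56.3% and 14 over all promoters, and 61.7% and 22 over those with a start region in all 8 libraries.

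Between 43825 and 80916 peaks were listed per library. The 4 libraries without the Flt3-ITD allele had 62782 to 80916 and the 4 with it 43825 to 63133, so lists were mostly shorter with that allele, and the number of reads behind a list is unknown. Start regions of 7 of 8 genes that mark stem and progenitor cells (Kit, Cd34, Flt3, Gata2, Meis1, Runx1 and Tal1) were called in all 8 libraries. None of the 4 B cell, 2 NK cell and 4 non-blood marker genes had a start region in any library, and of 4 T cell genes Lck had one in the DM libraries. Of 4 erythroid marker genes 3 had one in all 8, Epor and Klf1 among them, and Alas2 had one in the Npm1c libraries. Of 5 neutrophil genes, 5, 2, 4 and 4 had one in WT 1, WT 2, Npm1c 1 and Npm1c 2, and 1, 2, 3 and 2 in Flt3-ITD 1, Flt3-ITD 2, DM 1 and DM 2. In bulk libraries a smaller share of a cell type and less open chromatin per cell cannot be told apart.

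A start region, meaning a region at most 500 bp from the gene start (from either gene end for the 20 genes whose strand was not in the table), was found for 75 of the 80 genes. It was called in all 8 libraries at 74 of them (92.5%), against 11128 of all 21631 genes (51.4%). Among genes with a known strand it was called in all 8 at 55 of 60 (91.7%), against 52.6% of all such genes. Where a call needed peaks over 50% of the region's length, 49 of the 80 genes were called in all 8. The share of all genes under that rule is not given here, so this count has no background. Every one of the 30 small-subunit genes and 41 of the 47 Rpl genes were among the 74. The stalk genes Rplp0, Rplp1, Rplp2 and Rpl12, which recruit translation factors, were all called in 8 libraries, as were Rpl5 and Rpl11, which bind Mdm2 when ribosome assembly fails, and all 19 genes of a Diamond-Blackfan list, Rps19 and Rps24 among them. Start regions of genes with related tasks were open alike: 20 of 20 translation factors, 29 of 30 ribosome assembly genes and 77 of 78 mitochondrial ribosomal protein genes were called in all 8 libraries.

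The exceptions were few. Rpl37a, of the large subunit, had its start region (chr1:72711127-72712405) in 7 libraries and no peak there in Flt3-ITD 1. Its start peak measured 891, 863, 1121 and 1200 bp in WT 1, WT 2, Npm1c 1 and Npm1c 2, and 264, 247 and 701 bp in Flt3-ITD 2, DM 1 and DM 2. Rpl3l, which replaces Rpl3 in striated muscle, Rpl10l and Rpl39l, which are expressed mainly in testis, and Rpl32l had no start region in any library. Their parent genes Rpl3, Rpl10, Rpl39 and Rpl32 were called in all 8. Rps27l, the paralog of Rps27, was called in all 8 as well, at a mean width of 1148 bp against 779 bp for Rps27. Rpl17, whose strand was not in the table, had a region called in all 8 libraries that lies inside the gene but more than 500 bp from either end.

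The contrast within a paralog pair can be set beside the promoter letters. Rpl39 (chrX:37085203-37085352, minus strand) had a start peak of 1572, 1485, 1259 and 1930 bp in WT 1, WT 2, Npm1c 1 and Npm1c 2 and of 789, 1036, 784 and 893 bp in Flt3-ITD 1, Flt3-ITD 2, DM 1 and DM 2. Rpl39l (chr16:10170098-10170247, plus strand) had no peak at its start in any of them. This pair was printed after its values were seen.
Rpl39: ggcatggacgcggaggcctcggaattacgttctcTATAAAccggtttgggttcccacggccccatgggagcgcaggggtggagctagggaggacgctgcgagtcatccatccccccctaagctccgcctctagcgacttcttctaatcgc
Rpl39l: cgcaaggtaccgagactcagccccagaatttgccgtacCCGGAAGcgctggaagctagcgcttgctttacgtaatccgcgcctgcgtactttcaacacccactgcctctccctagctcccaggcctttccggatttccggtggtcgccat
The paralog without a peak carries the ETS letters, 92 bases before its start. In Rpl39 the printed stretch holds TATAAA, 96 bases before the start, and its ETS match lies outside that stretch.

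Of the 75 start regions, 62 had their midpoint in or nearest to the ribosomal protein gene and 13 to a neighbour, such as Rdh10 for Rpl7, Clhc1 for Rps27a, Med22 for Rpl7a and Trappc4 for Rps25. A peak shared by neighbouring starts cannot be divided between them. The widths of the start peaks were ranked within each library among all its peaks, on a scale where 100 is the widest. The 74 genes had mean percentiles from 71.6 to 99.3 with a median of 87.2, against a median of 88.4 over all genes with a start region in all 8 libraries, so their start peaks were wide among peaks and ordinary among open gene starts. Translation factors had a median of 94.8 and mitochondrial ribosomal protein genes 81.8.

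Rpl7, whose strand was not in the table, had the widest start peak, with 2967, 2797, 2918 and 3081 bp in WT 1, WT 2, Npm1c 1 and Npm1c 2 and 2328, 2370, 2188 and 2187 bp in Flt3-ITD 1, Flt3-ITD 2, DM 1 and DM 2. It was followed by Rpl10, Rpl38 and Rpl34, at mean percentiles of 96.7, 96.6 and 95.2. Rps28 had the narrowest, with 677, 649, 495 and 633 bp in the former 4 libraries and 664, 600, 649 and 635 bp in the latter 4, which overlapped. Rps15, Rps2, Rpl6 and Rpl26 came next, at 74.6, 75.1, 75.6 and 77.2. Across libraries a gene's percentile varied by a median SD of 3.59 points. Rpl36 and Rps15, named after their values were seen, were among the most variable genes, with SDs of 10.98 and 10.7 points. At Rpl36, whose strand was not in the table, the peak at a gene end spanned 2998 and 3018 bp in WT 1 and WT 2 and 582 to 1042 bp in the other libraries. Whether that end is the start is not known here, and the region lies nearest to Lonp1.

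**Figure D2:**
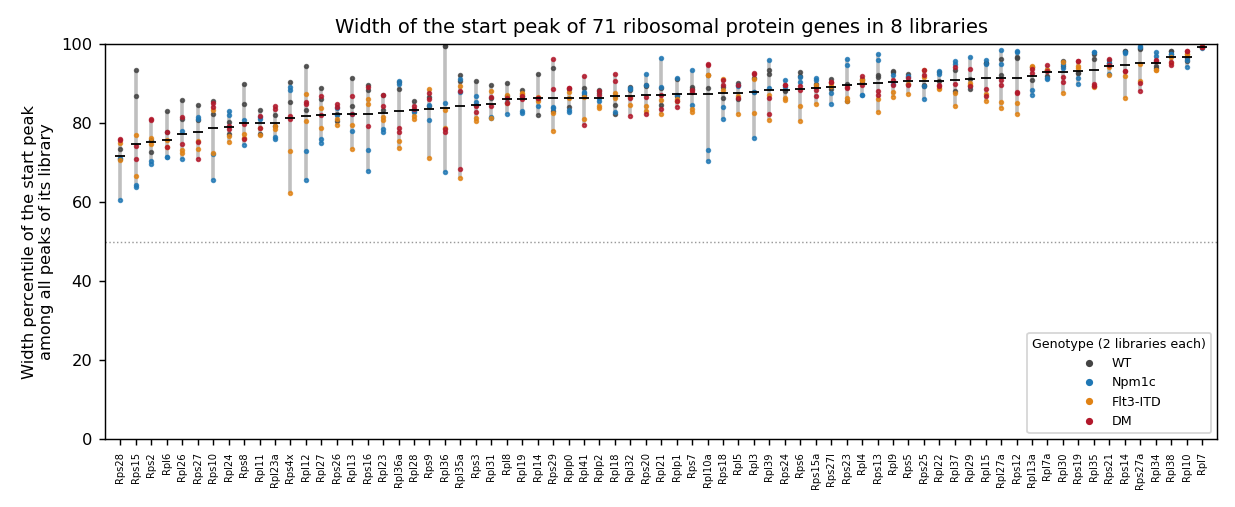
Width percentile of the start peak among all peaks of its library (y axis) for 71 of the 74 ribosomal protein genes with a start region in all 8 libraries (x axis, ordered by mean). Points are libraries coloured by genotype, grey lines their range and black dashes the mean, which runs from 71.6 at Rps28 to 99.3 at Rpl7.

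Start peaks were narrower with the Flt3-ITD allele, at these genes and at open gene starts in general. The median start peak measured 1345, 1225, 1192 and 1155 bp in WT 1, WT 2, Npm1c 1 and Npm1c 2 and 910.5, 994, 921 and 938 bp in Flt3-ITD 1, Flt3-ITD 2, DM 1 and DM 2, without overlap (1229 ± 82.3 bp against 941 ± 37.2 bp, SD, n = 4 each). At 39 of the 74 genes (52.7%) every library with the allele had a narrower peak than every library without it, and at 0 a wider one. Among the 10003 start regions called in all 8 libraries, 53.9% were narrower in this way and 0.3% wider, so the share at the ribosomal protein genes lay at the background. The median gene kept 76.8% of its width, against 76.3% over all of those regions.

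Rps14, a small-subunit gene whose loss is known from the 5q- syndrome and whose strand was not in the table, had start peaks of 2352, 2260, 2367 and 2294 bp without the allele and 951, 1284, 1205 and 1194 bp with it. Rps6, the substrate of the S6 kinases, had 1432, 1510, 1368 and 1458 bp without it and 785, 928, 1008 and 961 bp with it. Rpl5 had 1314, 1122, 1313 and 1286 bp without and 974, 868, 1019 and 894 bp with it. Rps19, the gene most often mutated in Diamond-Blackfan anaemia, had 1506, 1494, 1322 and 1432 bp without and 1353, 1418, 1397 and 1394 bp with it, which overlapped. Rplp0, the base of the stalk, had 1210, 1027, 958 and 969 bp without and 1010, 1011, 986 and 979 bp with it, which overlapped too.

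Ranked within each library, the difference was small. The median percentile was 88.5 ± 1.54 without the allele and 86.4 ± 1.19 with it, a difference of -2.06 points, and the groups overlapped. With every list cut to the 43794 widest peaks the difference turned to 1.82 points. On the percentile scale 18 of the 74 genes (24.3%, against a background of 23.7%) had a lower rank in every library with the allele, Rps14, Rps27a and Rps6 among them, and 3 (4.05%, against 6.2%) a higher one, namely Rpl10, Rps19 and Rps25. For the Npm1c allele the start peaks of 3 genes (4.05%, against 5.08%) were narrower in bp in all 4 libraries with it and 0 (against 0.31%) were wider, and by percentile 1 (1.35%, against 4.8%) ranked lower and 2 (2.70%, against 3.53%) higher.

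**Figure D3:**
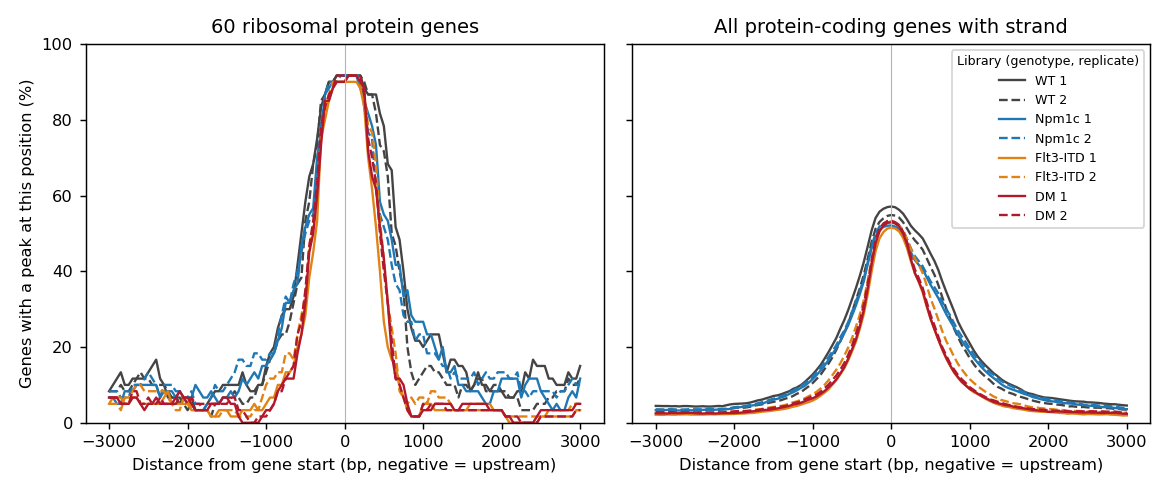
Percent of genes with a peak at each distance from the gene start (x axis, bp, in the direction of the gene), for the 60 ribosomal protein genes with a known strand (left) and all protein-coding genes with a known strand (right), with 1 line per library. At the start 90% to 91.7% of ribosomal protein genes had a peak in every library, and 1000 bp into the gene 13.3% to 26.7% had one without the Flt3-ITD allele and 3.33% to 6.67% with it.

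The same can be read by position. At the start, 91.3% of the 60 genes with a known strand had a peak on average without the Flt3-ITD allele and 90.4% with it, against 54.3% and 52.7% of all genes. At 500 bp into the gene the values were 64.2% (51.7% to 78.3% over 4 libraries) and 38.3% (26.7% to 43.3%), against 39.9% and 29.1% of all genes. At 1000 bp into the gene they were 20.8% (13.3% to 26.7%) and 5% (3.33% to 6.67%), against 19.03% and 9.67%. At 500 bp upstream they were 53.3% (50% to 58.3%) and 32.1% (28.3% to 35%), against 29.9% and 20.3% of all genes. At 1000 bp upstream they were 15% (13.3% to 16.7%) and 5% (1.67% to 10%), against 11.8% and 6.73%. At 2000 bp upstream they were 5.42% and 5.83%, with overlap between the groups, against 4.22% and 2.73% of all genes. The start was thus occupied in both groups, and at 500 and 1000 bp on either side of it the groups did not overlap.

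Peaks covered 25.5% to 29.8% of the length of the 74 genes in the libraries without the Flt3-ITD allele and 16.0% to 18.9% in those with it. Over 3109 other genes of 592 to 11774 bp, the range of the ribosomal protein genes, with a start region in all 8 libraries, the cover was 15.8% to 19.7% and 12.8% to 14.9%. Those genes were longer, with a median of 6046 bp, so a peak of a given width covers less of them.

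The 289 regions were divided by their distance to the nearest gene start into 78 start regions (within 500 bp), 97 proximal regions (up to 5 kb) and 114 distal ones. Called in all 8 libraries were 101 of the 289 (34.9%, against 25.3% of all regions), of which 66 were start regions (84.6%, against 75.8% of all start regions), 14 proximal ones (14.4%, against 19.1%) and 21 distal ones (18.4%, against 17.1%). Some gain or loss, meaning a call in both libraries of one genotype and neither of another, occurred at 6 start regions (7.69%, against 13.7%), 51 proximal ones (52.6%, against 46.5%) and 57 distal ones (50%, against 49.3%). None of the 75 regions taken as the start regions of the genes was gained or lost in any of the 5 comparisons. The 6 changed regions near a start belonged to genes whose own start region was called in all 8 libraries.

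Examples are Rps26 and Rps29. At Rps26 the region at its start (chr10:128626242-128627271) was called in all 8 libraries, while the adjoining region inside the gene (chr10:128625217-128626189) and one upstream (chr10:128627536-128628209) were called in the 6 WT, Npm1c and Flt3-ITD libraries and in neither DM library. At Rps29 a region 390 bp from the gene (chr12:69157044-69157621) was called in every WT and Npm1c library and in no Flt3-ITD or DM library. The strand of Rps29 was not in the table, and the region over its other gene end (chr12:69158389-69160041), taken as its start region, was called in all 8 libraries.

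Of all 289 regions, 229, 197, 189 and 197 were called in WT 1, WT 2, Npm1c 1 and Npm1c 2 and 145, 154, 156 and 163 in Flt3-ITD 1, Flt3-ITD 2, DM 1 and DM 2. The share was 70.2% ± 6.14 without the Flt3-ITD allele and 53.5% ± 2.57 with it (SD, n = 4 each), a difference of -16.8 points, and the groups did not overlap. Over all regions the share was 63.4% ± 8.42 and 48.3% ± 8.07. Less the share of all regions, the difference at the ribosomal protein genes was -1.68 points. With lists of equal length, and without that subtraction, the difference in their share was -4.07 points. For the Npm1c allele the shares were 61.0% ± 6.86 with it and 62.7% ± 13.5 without, which overlapped.

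Divided by distance, start regions were called at 92.3% to 94.9% without the Flt3-ITD allele and 85.9% to 89.7% with it. Proximal regions were called at 70.1%, 54.6%, 61.9% and 61.9% in WT 1, WT 2, Npm1c 1 and Npm1c 2 and at 26.8%, 30.9%, 29.9% and 27.8% in Flt3-ITD 1, Flt3-ITD 2, DM 1 and DM 2. All proximal regions were called at 74.2%, 55.2%, 54.2% and 59.4% in the former and 33.6%, 43.0%, 43.4% and 49.9% in the latter. Distal regions of the ribosomal protein genes overlapped between the groups, at 50% to 76.3% and 44.7% to 60.5%. Less the share of all proximal regions, the proximal share at these genes lay from -4.09 to 7.66 points in the 4 libraries without the allele. In the 4 libraries with it the range was -22.0 to -6.76 points.

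**Figure D4:**
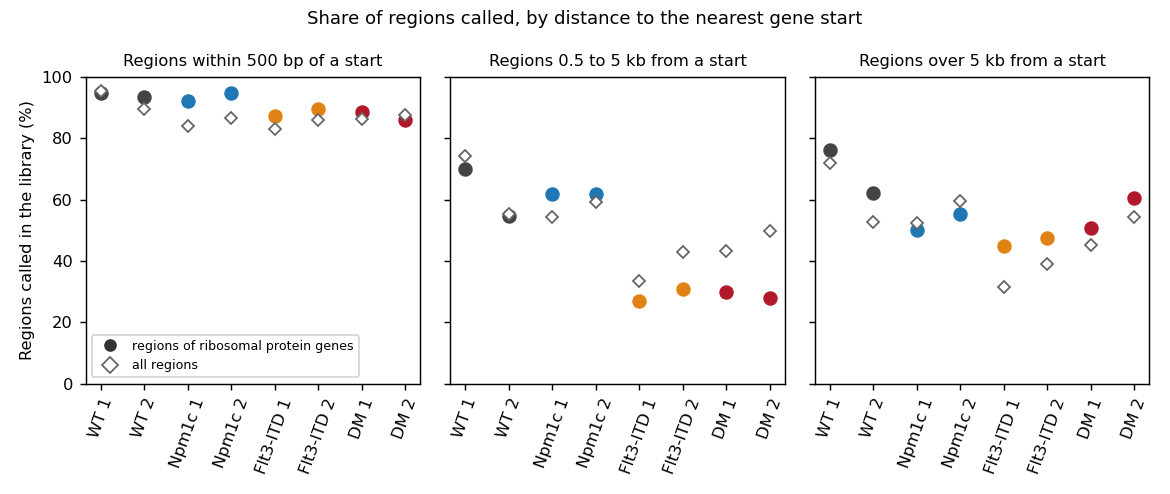
Percent of regions called in each library (y axis), for regions of ribosomal protein genes (filled circles, coloured by genotype) and for all regions (open diamonds), in 3 classes of distance to the nearest gene start. In the proximal class the ribosomal protein regions stand at 54.6% to 70.1% in the libraries without the Flt3-ITD allele and at 26.8% to 30.9% in those with it.

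Taken as the share at the ribosomal protein genes less that of all proximal regions, the mean was 1.36 points ± 4.98 without the allele and -13.6 points ± 6.33 with it, a difference of -14.9 points that stayed at -14.4 points with lists of equal length. This measure was chosen after the values by class had been seen. Differences of similar size stood at other gene lists. Proximal regions differed by -33.2 points between the groups at ribosomal protein genes, by -36.4 points at 46 regions of mitochondrial ribosomal protein genes, by -29.9 points at 46 of translation factor genes, by -26.0 points at 26 of ribosome assembly genes and by -18.3 points over all 17297. List length and the number of neutrophil marker genes called were lower on average in the libraries with the allele, with overlap between the groups in both, and the part of the marker calls in the result was not tested.

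By position, 28, 19, 24 and 22 of the 42 proximal regions inside the genes were called in WT 1, WT 2, Npm1c 1 and Npm1c 2, against 5, 7, 8 and 6 in Flt3-ITD 1, Flt3-ITD 2, DM 1 and DM 2. Of the 28 downstream of a gene, 21, 20, 21 and 22 were called in the former and 12, 14, 11 and 9 in the latter. Of the 12 upstream, 8, 5, 5 and 5 were called in the former and 5, 5, 5 and 7 in the latter. Of the other 15, which lie outside genes whose strand was not in the table, 11, 9, 10 and 11 were called in the former and 4, 4, 5 and 5 in the latter. The groups overlapped upstream of the genes and not in the other positions. Inside the genes the mean share called was 55.4% without the allele and 15.5% with it, against 60.2% and 41.2% of all 11203 proximal regions inside genes. Downstream it was 75% and 41.1%, against 65.3% and 47.3% of 800 regions, and upstream 47.9% and 45.8%, against 61.5% and 43.4% of 3517 regions. For regions outside genes without a known strand it was 68.3% and 30%, against 60.9% and 46.1% of 1777 regions.

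The calls separated the 4 libraries lacking the Flt3-ITD allele from the 4 carrying it, present in all of the former and absent from all of the latter, at 21 regions of 16 genes (7.27% of the 289, against 8.38% of all regions). They comprised 3 at Rps29, 2 each at Rpl15, Rps14 and Rps20, and 1 at each of the other genes, among them Rpl14, Rpl17, Rpl22, Rpl30, Rpl34, Rpl35, Rpl37, Rpl37a, Rps4x, Rps6 and Rps12. At Rps20, whose strand was not in the table, they lie inside the gene (chr4:3833762-3834443) and outside it (chr4:3830106-3830706), at Rpl22 inside the gene (chr4:152328683-152329068), and at Rps14 outside the gene (chr18:60779430-60780535). The opposite pattern was found at 2 regions (0.692%, against 0.566%), both assigned to Rplp1. With lists of equal length these counts were 9 and 10, and the shares of all regions under that setting are not given here. Fisher's exact test per region gave p = 0.0286 for each, the smallest value 4 against 4 libraries allow, and an adjusted p of 0.320 over all regions tested (Benjamini-Hochberg).

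For the Npm1c allele, 1 region (0.346%, against 0.156%) was called in all 4 libraries with it and none without (exact p = 0.0286, adjusted p = 1), and 0 (against 0.204%) showed the opposite. It lies 3398 bp from Rps13 (chr7:116327934-116328285). Rps13, of the small subunit, had 2 further regions called in both Npm1c libraries alone, 1 inside the gene (chr7:116331218-116331999) and 1 beyond it (chr7:116328766-116329243). No region of a ribosomal protein gene had an adjusted p under 0.05 for either allele, and 23 and 1 had an unadjusted p under 0.05 for the Flt3-ITD and the Npm1c allele.

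Between genotypes, counts of gained and lost regions were mostly near those over all regions. The comparisons share libraries, and with 2 libraries against 2 no exact two-sided p can fall below 0.333, so the counts are descriptions. In Npm1c against WT, 15 regions were gained (5.19%, against 2.71%) and 26 lost (8.997%, against 6.26%). The gains were 3 each at Rpl34 and Rps13 and 1 at each of 9 other genes, and 12 of the 15 were proximal (12.4% of proximal regions, against 3.75%). At Rpl34 they lie inside the gene (chr3:130728117-130728661), 919 bp from it (chr3:130725391-130726425) and 64080 bp from it. Of the losses, 3 were at Rplp1 and 2 each at other genes, among them Rpl3, Rpl6, Rps7 and Rps19.

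In Flt3-ITD against WT, 2 regions were gained (0.692%, against 0.852%), both at Rplp1, and 48 lost (16.6%, against 16.2%). Of the proximal regions 23 were lost (23.7%, against 16.5%). In DM against WT, 13 were gained (4.50%, against 6.93%), 6 of them at Rplp1, and 55 lost (19.03%, against 20.9%), with Rps14, Rps29 and Rps4x at 3 losses each. With lists of equal length the losses fell to 11 and 28 and the gains came to 10 and 18, so the size of the excess of losses over gains moved with list length. For these counts too, the shares of all regions with lists of equal length are not given here.

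In DM against Npm1c, 30 regions were gained (10.4%, against 12.6%), 11 of them at Rplp1, 5 at Rpl38 and 3 at Rps10, and 53 lost (18.3%, against 19.3%), with 4 each at Rpl34 and Rps29. In DM against Flt3-ITD, 11 were gained (3.81%, against 10.6%) and 10 lost (3.46%, against 3.44%). A region 1939 bp from Rps27l (chr9:66942464-66942907) was called in the 2 DM libraries alone. The gained share at ribosomal protein genes in DM against Flt3-ITD was lower than that over all regions.

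Libraries of a genotype resembled each other at these regions. The Jaccard index, the number of regions called in both of a pair of libraries over the number called in either, was 0.831 on average for the 2 libraries of a genotype (0.813 to 0.857) and 0.618 for libraries of different genotypes. Over all regions these means were 0.765 and 0.535. Among genotypes the index was highest between Flt3-ITD and DM (0.754), followed by WT and Npm1c (0.673), and lowest between Npm1c and DM (0.508).

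Rplp1, an acidic protein of the stalk, had more regions than any other of the genes, 18, followed by Rpl34 with 13, Rpl38 with 12 and Rpl21 with 11. The gene is 1228 bp long (chr9:61913283-61914510), with Kif23 2767 bp to one side and no protein-coding gene for 494786 bp to the other, up to Tle3. Its start region was called in all 8 libraries. Of the 15 regions more than 10 kb away, which all lie on the side of Tle3, 7, 4, 0 and 1 were called in WT 1, WT 2, Npm1c 1 and Npm1c 2 and 10, 8, 12 and 14 in Flt3-ITD 1, Flt3-ITD 2, DM 1 and DM 2. The calls were thus fewest in Npm1c and most in DM, and the libraries with the Flt3-ITD allele all had more than those without. Lists were mostly shorter with that allele, although DM 2 listed 63133 peaks and Npm1c 1 listed 62782. Whether the counts at Rplp1 depend on the length of the lists was not tested.

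The 2 regions called only with the Flt3-ITD allele lie 55250 bp (chr9:61857792-61858274) and 38782 bp (chr9:61874276-61874726) from Rplp1. Another 2, at 76174 and 39799 bp, were called in the DM libraries alone. One at 13315 bp (chr9:61899757-61900179) was called in the WT libraries alone. The 11 regions gained in DM against Npm1c are a number reached or passed by 43 of the 16618 genes with a region (0.259%). Rplp1 is named here for its many regions, so this rank is only a description. The assignment to Rplp1 is by distance, and no measurement here links the regions to that gene.

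**Figure D5:**
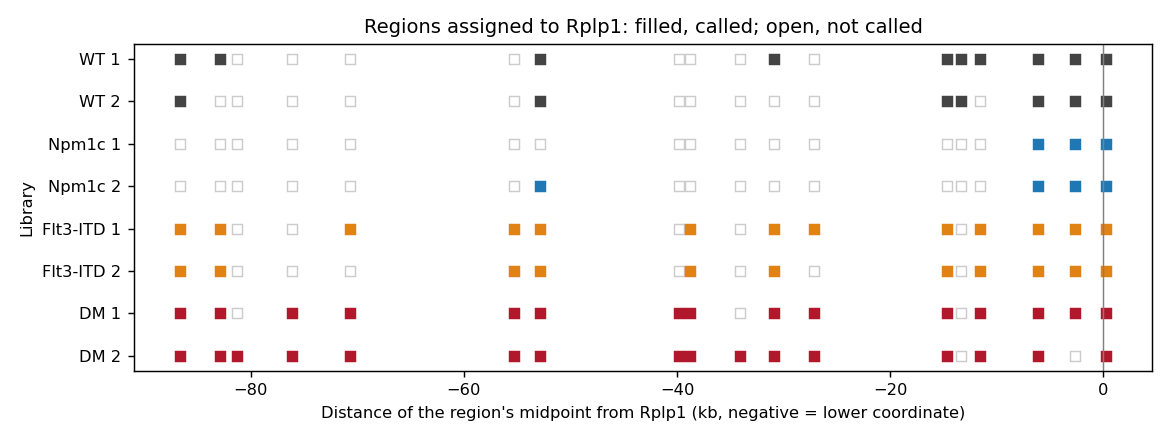
Regions assigned to Rplp1 by their distance from the gene (x axis, kb, negative towards lower coordinates) in each library (y axis), filled where called and open where not. The start region at the right is filled in all 8 libraries, while more than 10 kb away 0 and 1 of 15 regions are filled in the Npm1c libraries and 12 and 14 in the DM libraries.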

How the data were processed

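ATAC-seq peaks of 8 libraries were used, and 2 neutrophil samples were not analysed here. The submitters' processing notes name Bowtie2 for alignment, MACS2 for peaks and the build mm10. Versions, thresholds, duplicate removal and the shift for the transposase are not given in the sources used here. Each deposited list holds the chromosome, start and end position of each peak and no height, so a region is called or not, and depth is unknown. The labels name the replicates without their animals, so any p measures only the spread between these samples.

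Peaks were merged and assigned with Python 3.11.15, NumPy 2.4.6, pandas 2.3.3 and SciPy 1.17.1. Merging, calling and the separation of calls by an allele were tested on simulated data, and the assignment to genes was not. Genes came from a RefSeq table of GRCm38.p6 without exons. Where genes overlapped, a ribosomal protein gene holding the midpoint was taken first, and otherwise the shortest gene holding it. Fisher's exact test was run per region over all regions, with Benjamini-Hochberg adjustment. The genes and lists were chosen with earlier results of these data known. For this reason the planned permutation tests of shares and widths over the genes are reported as values, SDs and overlap, without a p. Named genes were those without a start region in all 8 libraries, those with most changed regions per comparison, the 5 with most regions, the 5 widest and the 5 narrowest at the start, paralogs with their parents, and members of the short lists; a few genes that these rules name are not reported here. Alternatives were 50 kb or 1 kb as the distance, lists of equal length, no narrow peaks, 50% cover for a call, a replicate block and each library left out.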

Additional observations from a re-analysis of the deposited data

Results flagged for a closer look

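At 4 of the genes reported on here the number of regions called moved in opposite directions when the Npm1c allele was compared without and with the Flt3-ITD allele, in every library on both sides. These differences were not tested, and the genes were found by looking through the whole set. Over all regions too, losses (6.26%) outnumbered gains (2.71%) in Npm1c against WT. Gains (10.6%) outnumbered losses (3.44%) over all regions in DM against Flt3-ITD. The share of all genes that moved in this way is not given here, so the pattern cannot be called particular to these genes. At Rplp1 the Npm1c allele went with -5 regions on a WT background (10 and 7 in WT, 3 and 4 in Npm1c) and 3.5 more on a Flt3-ITD background (13 and 11 in Flt3-ITD, 15 and 16 in DM). At Rpl38, a protein of the large subunit, it went with -3.5 regions on WT (9 and 8, then 5 and 5) and 2 more on Flt3-ITD (8 and 8, then 10 and 10). At Rps10 it went with -3.5 regions on WT (7 and 3, then 2 and 1) and 1.5 more on Flt3-ITD (4 and 4, then 5 and 6). At Rps16 it went with -1.5 regions on WT (3 and 3, then 1 and 2) and 1 more on Flt3-ITD (1 and 1, then 2 and 2).

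The start region was called in all 8 libraries at each of these genes, so the regions that moved are others. At Rpl38 the 5 regions gained in DM against Npm1c lie between 12200 and 96438 bp from the gene.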

How the results depend on the processing

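The number of peaks per list and the all-or-none call set the limits here, since no read depth or peak height is given. Counts under the altered settings below have no share over all regions or genes beside them. They show how the counts moved and cannot be set against a background. With lists of equal length, the difference in the share called for the Flt3-ITD allele came to -4.07 points and that in start peak width turned to 1.82 percentile points. The gained and lost counts became 7 and 7 in Npm1c against WT and 10 and 11 in Flt3-ITD against WT, the losses 28 in DM against WT and 35 in DM against Npm1c, and the gains 3 in DM against Flt3-ITD. Regions called with and without the Flt3-ITD allele numbered 10 and 9, and for the Npm1c allele 0 and 2. The count of 74 genes with a start region in every library stayed at 74. In bp the width difference was -288 bp, and less the share of all regions the difference in share was -1.68 points.

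With 50% of a region covered for a call, 49 genes had a start region in every library, the Flt3-ITD allele separated 0 and 33 regions, Npm1c went with 2, and gains in Flt3-ITD against WT were 0 and losses in DM against Flt3-ITD 3. Without the narrowest peaks, gains and losses were 7 and 12 in Npm1c against WT, gains 1 in Flt3-ITD against WT and losses 3 in DM against Flt3-ITD, and 1 and 0 regions were called with the Flt3-ITD and the Npm1c allele alone. With genes within 50 kb, 1 region was gained in Flt3-ITD against WT and 1 called with that allele alone. With regions within 1 kb of a gene only, which leaves fewer regions, losses were 15 in Npm1c against WT, gains and losses 0 and 30 in Flt3-ITD against WT, 0 and 32 in DM against WT, 2 and 33 in DM against Npm1c and 2 and 4 in DM against Flt3-ITD, with 0 regions called with either allele alone. Without Rplp1, gains were 0, 7 and 19 in Flt3-ITD against WT, DM against WT and DM against Npm1c, and 0 regions were called with the Flt3-ITD allele alone. Leaving out Rplp1, subtracting the share of all regions, and the proximal measure were chosen after seeing the data. For changes with no cause given, the cause was not tested.

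In their deviations over all regions, same-numbered libraries of different genotypes had correlations of -0.0399 to 0.0387. Over the regions of ribosomal protein genes the correlations ran from -0.126 to 0.0482. These values come from 2 libraries per genotype and cannot show whether a replicate number marks a batch. With a replicate block the differences are -16.8 points (all regions of the genes) and -14.9 points (proximal, less all proximal) by construction, since the design is balanced, which says nothing about stability. The smallest p that exact permutations within the block allow is 0.0556, so neither can fall below 0.05 there.

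Leaving out 1 library at a time, the difference in share for the Flt3-ITD allele ran from -19.6 to -14.3 points, that in width from -2.49 to -1.33, and the proximal measure from -17.5 to -11.8. For the Npm1c allele the share ran from -5.91 without Flt3-ITD replicate 1 to 2.96 without WT replicate 1, with 0.606 without DM replicate 1. The width ran from -0.960 to 0.949, with 0.165 without WT replicate 2 and 0.0274 without DM replicate 1, so neither has a stable direction. A genotype left with 1 library gives more gains and losses by construction. Gains and losses reached 27 (without Npm1c replicate 1) and 52 (without WT replicate 2) from 15 and 26 in Npm1c against WT, 10 (without WT replicate 1) and 76 (without WT replicate 2) from 2 and 48 in Flt3-ITD against WT, and 24 (without WT replicate 1) and 81 from 13 and 55 in DM against WT. They reached 39 and 72 from 30 and 53 in DM against Npm1c, and 24 (without DM replicate 1) and 14 from 11 and 10 in DM against Flt3-ITD. Other libraries that moved gains by over 1.5 times were WT replicate 1 (23) and Npm1c replicate 2 (25) in Npm1c against WT, Flt3-ITD replicate 2 in Flt3-ITD against WT (5) and DM against Flt3-ITD (17), and DM replicate 1 in DM against WT (21). Regions called with the Flt3-ITD allele alone rose from 2 to 9 without WT replicate 1 and to 5 without Flt3-ITD replicate 2, those without it from 21 to 28, and those without the Npm1c allele from 0 to 2, with 1 without WT replicate 2, Flt3-ITD replicate 1 or DM replicate 1.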

Other observations

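The list of ribosome assembly genes held 1 gene with a changed start region. Tsr1, which is needed for the maturation of the small subunit, lost its start region (chr11:74897881-74898643) in Npm1c against WT and had it gained in DM against Npm1c. None of the start regions of the 20 translation factor genes or of the 78 mitochondrial ribosomal protein genes was gained or lost in any of the 5 comparisons. Among all start regions, 13.7% were gained or lost in at least 1 of them.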
